A study of Homo sapiens with 8 samples.

Results

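The miR-99/100 and miR-125 families were read on the arrays by 7 mature miRNAs of the 2549 human miRNAs with probes. They were chosen by name: hsa-miR-99a-5p, hsa-miR-99b-5p, hsa-miR-99b-3p, hsa-miR-100-5p, hsa-miR-125a-5p, hsa-miR-125a-3p and hsa-miR-125b-5p, written without hsa- from here on. Their genes lie in 3 loci, each of which also holds a let-7 gene. INA-6 is an established human multiple myeloma (MM) cell line, grown here with interleukin-6, and 8 single-colour microarrays, 1 per culture, read its mature miRNAs. The control arrays came from 4 cultures given DMSO, the solvent, and the treated arrays from 4 cultures given 1 μM of UNC1999, which inhibits the histone methyltransferase EZH2, both for 120 hours with medium and reagents refreshed. By their titles the controls received DMSO, but the labels' treatment protocol names the inactive compound UNC2400, and the samples were taken as DMSO. Which of the miRNAs of these loci changed, and whether the arms of a hairpin and the genes of a locus changed alike, was compared between both groups.

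A miRNA gene gives a hairpin from which an arm at the 5′ end (5p), an arm at the 3′ end (3p) or both are kept as mature miRNAs, and the seed near the 5′ end of the mature strand does most to choose the mRNAs it represses. In animals the miR-99/100, let-7 and miR-125 genes stand side by side in clusters, and let-7 and miR-125 are known for restraining genes of early development. miR-100 and miR-99a are known for repressing the kinase mTOR, and miR-125b for its part in blood cell formation and in leukaemia.

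The mature sequences below are those of RefSeq (GRCh38.p14), which held all 7. They are shown because the families are defined by the seed, bases 2 to 8, which is in capitals, and because the near-identical strands bear on what a probe can tell apart. The seed ACCCGUA is shared by miR-99a-5p, miR-100-5p and miR-99b-5p.
miR-99a-5p: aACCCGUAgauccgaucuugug
miR-100-5p: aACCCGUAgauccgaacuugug
miR-99b-5p: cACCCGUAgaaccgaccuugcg
The seed CCCUGAG is shared by miR-125b-5p and miR-125a-5p.
miR-125b-5p: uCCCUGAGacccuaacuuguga
miR-125a-5p: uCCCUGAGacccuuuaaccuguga
The 3p arms share no seed with the rest of the 7, CAGGUGA in miR-125a-3p and AAGCUCG in miR-99b-3p.
miR-125a-3p: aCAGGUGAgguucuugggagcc
miR-99b-3p: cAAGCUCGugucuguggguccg
The let-7 miRNAs of the same loci share the seed GAGGUAG.
let-7c-5p: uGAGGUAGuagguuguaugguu
let-7a-5p: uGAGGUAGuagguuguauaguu
let-7e-5p: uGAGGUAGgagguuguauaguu

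With positions counted from 1 at the 5′ end and the base of the first-named miRNA given first, miR-99a-5p and miR-100-5p differed by U16A alone. miR-99a-5p and miR-99b-5p differed by A1C, U11A, U16C and U21C. Between let-7a-5p and let-7c-5p the difference was A19G, and between let-7a-5p and let-7e-5p it was U9G. miR-125a-5p was 3 edits away from miR-125b-5p. How much of the signal of a probe came from such a close relative was not tested.

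The loci lie on chromosomes 21, 11 and 19 of GRCh38.p14. On chromosome 21, miR-99a-5p lies at chr21:16539101-16539122 on the plus strand, and the genes MIR99A, MIRLET7C and MIR125B2 follow each other with 658 and 50325 bases between them, all within the long non-coding RNA gene MIR99AHG. On chromosome 11, miR-100-5p lies at chr11:122152275-122152296 on the minus strand, and MIR100, MIRLET7A2 and MIR125B1, with 5635 and 46677 bases between them, lie within MIR100HG. The third locus, within SPACA6 and SPACA6-AS1 on chromosome 19, is the tightest, with 104 bases between MIR99B and MIRLET7E and 389 between MIRLET7E and MIR125A. miR-125b-5p is encoded on both chromosomes 11 and 21, and let-7a-5p also by MIRLET7A1 on chromosome 9 and MIRLET7A3 on chromosome 22, so that their signal cannot be assigned to 1 locus.

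The members differed first in whether they were seen at all. Of the 7 miRNAs, 4 were marked as detected by the scanner software on all 8 arrays, namely miR-99a-5p, miR-100-5p, miR-125b-5p and miR-125a-3p, and 3 on 0 of 8 arrays, namely miR-99b-5p, miR-99b-3p and miR-125a-5p. The 4 detected ones were among the 456 human miRNAs that all 4 arrays of either group detected, and which were tested with limma on the log2 scaled signal. This is the background-subtracted intensity summed over the probes of a miRNA and scaled to the 75th percentile of its array, with values below 8.98 raised to it. To be called, a miRNA needed an adjusted p from limma of 0.05 or less and a change of 1.2-fold or more. After UNC1999 treatment miR-99a-5p, miR-100-5p and miR-125b-5p were called lower, at 46.9%, 45.4% and 50.03% of their DMSO level, and miR-125a-3p was called higher by 1.23-fold. Of the 7, 4 were thus tested. Of these, 3 were called lower and 1 higher, where 34.6% and 36% of all 456 tested miRNAs were called lower and higher. For each of these 4 the treated and control values were fully apart, as they were for 65.4% of the miRNAs tested. In bulk RNA, fewer cells that carry a miRNA and less of it per cell cannot be told apart.

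miR-99a-5p, of chromosome 21, had log2 scaled signals, replicates 1 to 4, of 9.02, 8.66, 8.48 and 9.09 with DMSO and 7.99, 7.73, 7.79 and 7.37 with UNC1999. Every treated culture lay below every control, and DMSO replicates 2 and 3 were the lowest controls. The group means were 8.81 ± 0.29 and 7.72 ± 0.26 (SD, n = 4 each), a change of -1.09 in log2 (limma, with SE, the standard error, of 0.17 and adjusted p = 0.000529). It was the 14th largest of the 158 falls called. It was read by a pair of probes, which changed by -1.08 and -1.11.

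miR-100-5p, its relative on chromosome 11, was the dimmest of the detected members. With DMSO it stood at 5.41, 5.24, 5.29 and 5.48, and with UNC1999 at 4.49, 4.40, 4.21 and 3.76, replicates 1 to 4. The groups were apart by more than the spread within either, and UNC1999 replicate 4 was the lowest array. The group means were 5.35 ± 0.11 and 4.22 ± 0.33 (SD, n = 4 each), a change of -1.14 in log2 (limma, SE 0.16, adjusted p = 0.000284), and the fall ranked 12th. One of its probes carried 94.6% of the signal and changed by -1.06, while the other lay between -1.44 and 5.58 in scaled signal, near the background. The size of the fall moved with the processing. It was called at -0.49 with normexp, -0.53 when log2 probe values were averaged and -2.07 in the authors' processed values, and not called at -0.44 without scaling and -0.33 with the spike-ins.

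miR-125b-5p, encoded at both loci, read 8.28, 7.94, 7.88 and 8.30 on the DMSO arrays and 7.28, 7.11, 7.14 and 6.87 on the UNC1999 arrays of replicates 1 to 4. As with miR-99a-5p, DMSO replicates 2 and 3 were the lowest controls and UNC1999 replicate 4 the lowest of all. The means were 8.10 ± 0.22 and 7.10 ± 0.17 (SD, n = 4 each), a change of -0.999 in log2 (limma, SE 0.13, adjusted p = 0.000266), with the 20th largest fall. Its probes changed by -0.99 and -1.13.

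miR-125a-3p, the detected arm of the chromosome 19 locus, went the other way. Its log2 scaled signals were 6.65, 6.56, 6.65 and 6.60 in the controls and 6.85, 6.93, 6.82 and 7.07 after UNC1999, replicates 1 to 4. All treated values were above all controls, which spread over less than 0.1. The means of 6.62 ± 0.04 and 6.92 ± 0.11 (SD, n = 4 each) gave a change of 0.30 in log2 (limma, SE 0.09, adjusted p = 0.0151), and its probes rose by 0.36, 0.33 and 0.22. The rise was 161st in size of the 164 called. For each of the 4 detected members the exact permutation test of the 8 arrays, two-sided, gave p = 0.029, the smallest that 4 against 4 arrays allow.

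**Figure D1:**
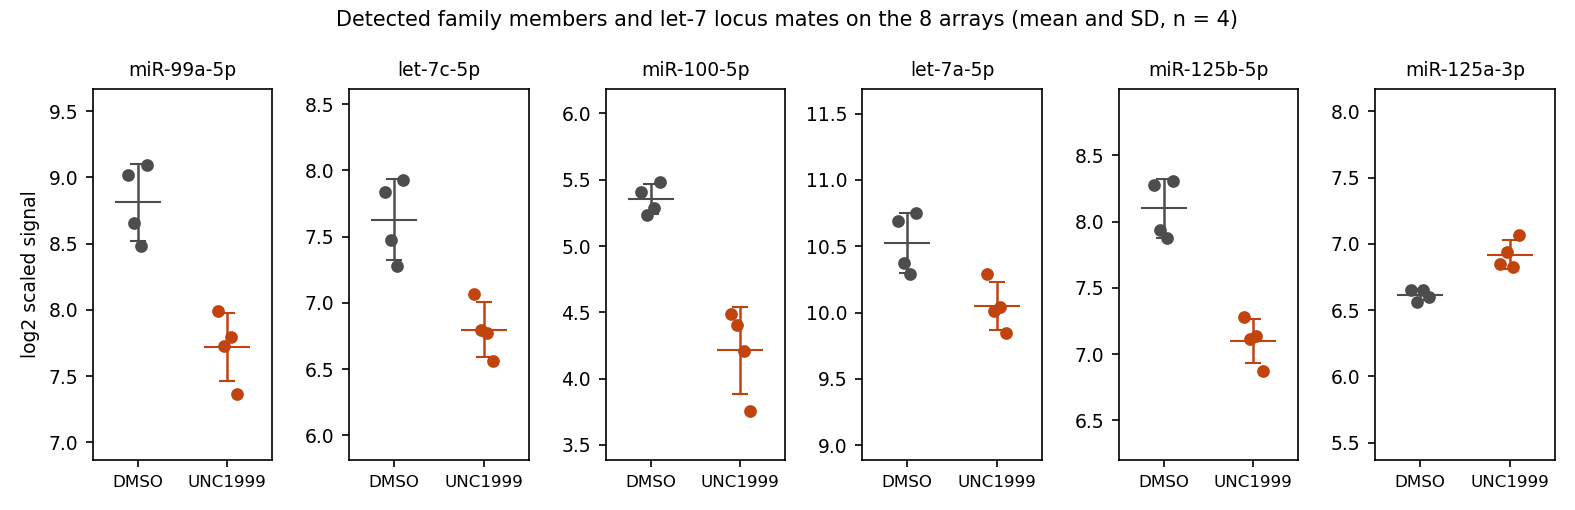
Log2 scaled signal of the 4 detected family members and of let-7c-5p and let-7a-5p on each array, DMSO in grey and UNC1999 in orange, with the mean and the SD of 4 arrays as bars. Each panel spans the same range of log2 units, and miR-125a-3p, at 6.62 and 6.92, is the panel in which the treated arrays lie above the controls.

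The rise of miR-125a-3p lay close to the threshold and depended on the processing. It was 0.22 when the sum made by the scanner software was used and 0.25 without UNC1999 replicate 4, and was called under neither. With the replicate number as a block it stayed at 0.30 and was not called (limma adjusted p = 0.0528). It was 0.26 without DMSO replicate 3 when the other 7 arrays were scaled anew, a step chosen after seeing the data, and was not called then. With normexp background correction it was -0.17 (limma adjusted p = 0.186, the highest of its alternatives, the lowest being 0.000105), the 1 setting that turned its direction. In that setting the median of all tested miRNAs was -0.29, and miR-125a-3p lay 0.12 above it.

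All 3 falls and the rise are relative to the other miRNAs of an array. Before scaling, the 75th percentile of the arrays was 474, 349, 296 and 559 for DMSO replicates 1 to 4 and 686, 708, 729 and 534 for UNC1999, so that the treated arrays were brighter on the whole. Without scaling between arrays the median log2 fold change of all tested miRNAs was 0.67 and not 0.01. On that scale miR-99a-5p, miR-100-5p and miR-125b-5p were at -0.39, -0.44 and -0.30, still below 0 and not called, and miR-125a-3p was called higher at 1.00. Scaled to the labelling spike-ins, control RNAs added before labelling, the falling members were at -0.28, -0.33 and -0.19, again not called, and miR-125a-3p was at 1.11, with a median of 0.77 over all miRNAs. Over the 5 scalings and normexp, relative to the median of each setting, miR-125a-3p was between 0.12 and 0.34, and the falling members were lowest at -1.25 and highest at -0.20. The 75th percentile over all human miRNAs kept all 4 calls, with miR-99a-5p at -0.87 and miR-125a-3p at 0.52, and so did quantile normalization, with -1.14 and 0.36.

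**Figure D2:**
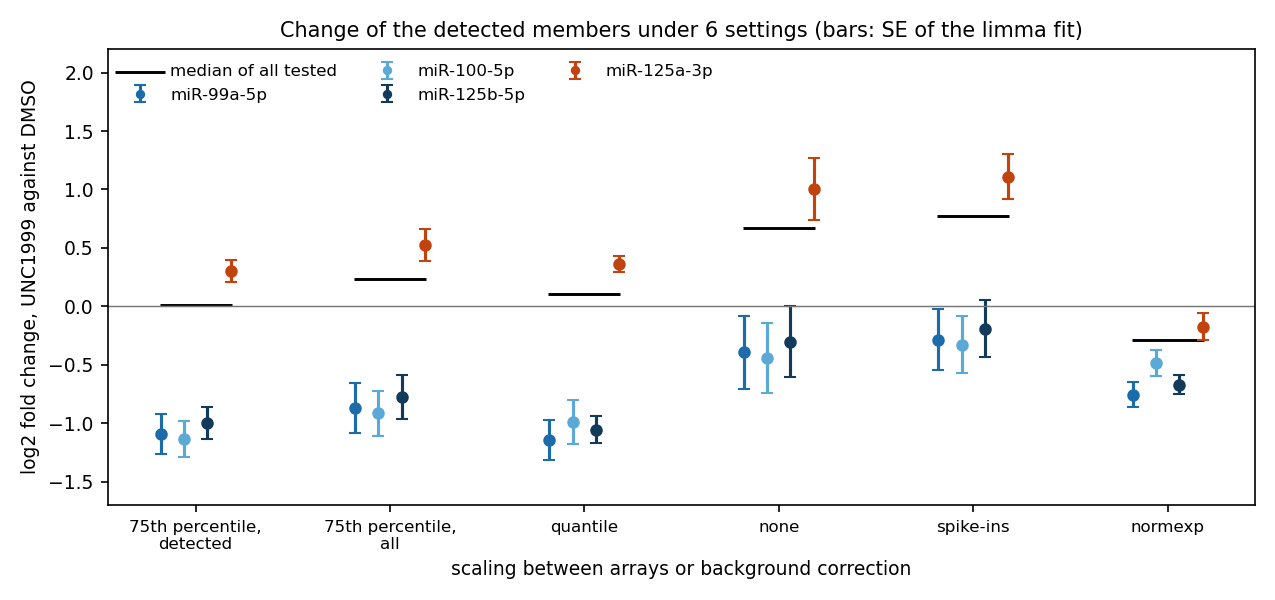
Log2 fold change of the detected members, UNC1999 against DMSO, under 5 scalings and with normexp background correction, with the standard error of the limma fit as bars and the median of all tested miRNAs as a black line. The 3 falling members lie below that line in every setting and miR-125a-3p above it, and with normexp it stands at -0.17, below 0.

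The other arms of the chromosome 19 locus gave almost no signal. In scaled signal, where the background is 0, miR-99b-5p lay between -1.62 and 3.74 on the 8 arrays and miR-125a-5p between -1.60 and 4.15, all under the floor of 8.98. let-7e-5p of the same locus lay between -5.33 and -1.16. On these arrays the 3p arm was therefore the arm of MIR125A that was seen, at scaled signals of 94.6 to 101 in the controls and 113 to 134 after UNC1999. The MIR125A hairpin, at chr19:51693254-51693339 on the plus strand, is printed with the 3p arm, bases 53 to 74, in capitals, since the result turns on which arm was read.
MIR125A: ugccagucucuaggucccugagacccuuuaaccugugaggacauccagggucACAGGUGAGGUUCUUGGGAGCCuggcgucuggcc
No ratio of the arms was computed, because miR-125a-5p and both miR-99b arms were not well above background in either group.

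miR-99b-3p, the 3p arm of MIR99B, was not marked as detected on any array, yet its background-subtracted signal differed between the groups. Replicates 1 to 4 had scaled signals of 7.34, -2.32, 7.24 and 8.77 with DMSO, and of 16.3, 16.7, 13.9 and 12.7 with UNC1999. Every treated array was above every control, with means of 5.26 ± 5.10 and 14.9 ± 1.91 (SD, n = 4 each; exact permutation test, two-sided, p = 0.029). Without scaling the means were 4.69 ± 4.70 and 19.3 ± 4.32 (SD, n = 4 each). Among the 1980 human miRNAs detected on no array, 7.58% had all treated values above all controls with scaling and 4.6% without. No fold is given for a miRNA below the detection call in both groups.

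**Figure D3:**
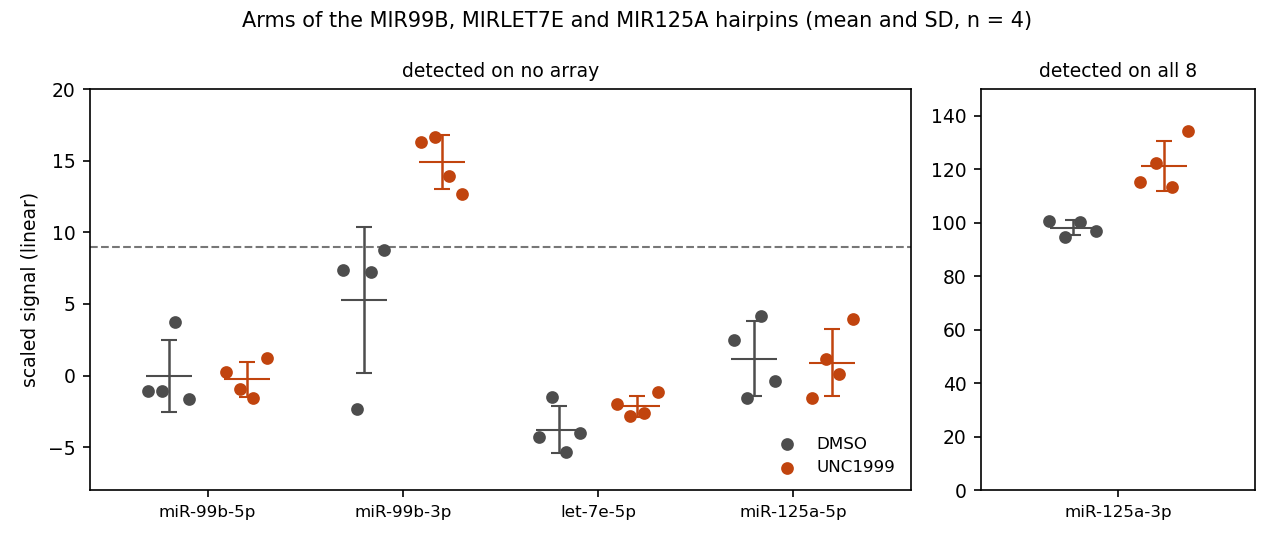
Scaled signal on a linear axis of the arms of the chromosome 19 locus on each array, DMSO in grey and UNC1999 in orange, with the mean and the SD of 4 arrays as bars and the floor of 8.98 as a dashed line. miR-99b-5p, let-7e-5p and miR-125a-5p lie under the floor on all arrays, miR-99b-3p on the UNC1999 arrays lies between 12.7 and 16.7, and miR-125a-3p has an axis of its own that starts at 0.

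The remaining arms of the 3 loci were not detected either. Of 7 such arms listed, 6 had probes, miR-99a-3p, miR-100-3p, miR-125b-1-3p, miR-125b-2-3p, let-7c-3p and let-7e-3p, and these 6 were detected on 0 of 8 arrays. At the chromosome 21 and chromosome 11 loci the 5p arms were thus the ones read. The human miRNAs on the array that share a seed with one of the 7 were looked up among the 2248 with a RefSeq sequence, and outside the 7 they were miR-4319, with the seed CCCUGAG, and miR-99a-3p, with the seed AAGCUCG, both detected on 0 arrays. In the miR-10 family, which resembles miR-100 in sequence, miR-10b-5p was detected on 0 arrays and miR-10a-5p on 2 of 4 arrays of each group, so that neither was tested. The log2 scaled signals of miR-10a-5p were 5.07, 4.31, 4.49 and 5.20 in the controls and 4.22, 3.41, 4.00 and 3.86 after UNC1999, with every treated value below every control. Unscaled they overlapped, at 4.94, 3.74, 3.68 and 5.31 in the controls and 4.63, 3.86, 4.50 and 3.91 after UNC1999.

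The detected let-7 miRNAs of the loci were lower too. let-7c-5p, between MIR99A and MIR125B2, was, for replicates 1 to 4, at 7.84, 7.47, 7.28 and 7.92 with DMSO and at 7.07, 6.79, 6.78 and 6.56 with UNC1999. Its groups did not overlap, and its change in log2 was -0.83 (limma, SE 0.16, adjusted p = 0.00166). let-7a-5p, the brightest miRNA of the loci, was at 10.69, 10.37, 10.29 and 10.75 in the controls and at 10.29, 10.01, 10.04 and 9.85 after UNC1999. Its groups touched, with UNC1999 replicate 1 at the level of DMSO replicate 3, and its log2 fold change of -0.48 was called by limma (standard error 0.14, adjusted p = 0.0114) while the exact permutation test, two-sided, gave p = 0.057. let-7a-5p was not called with normexp, at -0.28, or when the 75th percentile was taken over all human miRNAs, at -0.26. Without scaling let-7c-5p was at -0.13 and let-7a-5p turned to 0.22, neither of them called. With the spike-ins they were at -0.02 and 0.33, neither called, and with no filter on detection both lost their calls (limma adjusted p = 0.0501 and 0.13).

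Of the let-7 family elsewhere in the genome, 5 of 6 miRNAs were tested and 4 were called lower, with let-7d-5p at -1.01, let-7g-5p at -0.80, let-7i-5p at -0.67 and let-7f-5p at -0.64. let-7b-5p, at -0.13 (standard error 0.10, limma adjusted p = 0.273), was not called, and miR-98-5p was detected on 0 arrays. Without scaling let-7f-5p turned to 0.06, let-7i-5p to 0.03 and let-7b-5p to 0.57, none of them called, and let-7d-5p and let-7g-5p at -0.31 and -0.10 were not called. With the spike-ins let-7g-5p turned to 0.01 as well, let-7d-5p at -0.20 was not called, and let-7b-5p was called higher at 0.68. let-7f-5p and let-7i-5p lost their calls when all human miRNAs set the 75th percentile, at -0.42 and -0.45, and with no filter on detection (limma adjusted p = 0.0591 and 0.0522). The median log2 fold change was -1.05 over the 4 tested members, -0.65 over the let-7 pair of the loci and -0.67 over the 5 let-7 miRNAs elsewhere, beside 0.01 over all 456.

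**Figure D4:**
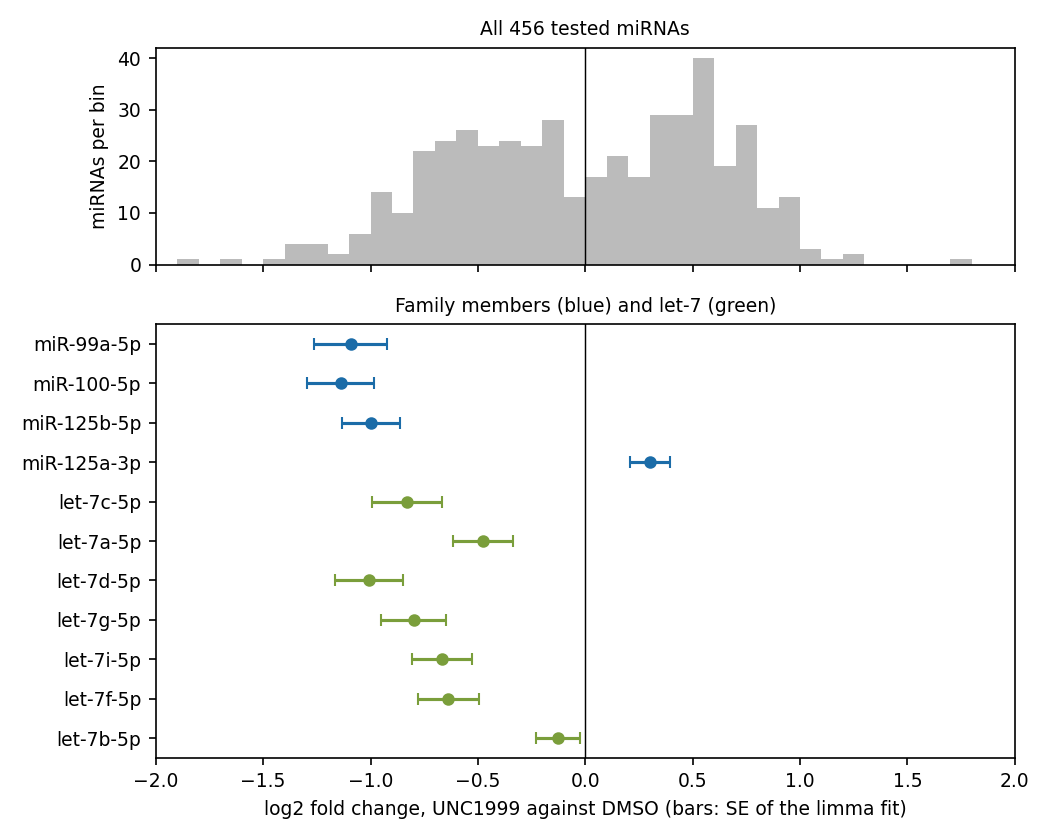
Upper panel, number of miRNAs by log2 fold change, UNC1999 against DMSO, for the 456 tested; lower panel, the 4 tested family members in blue and 7 let-7 miRNAs in green, with the standard error of the limma fit as bars. The falling members lie between -1.14 and -0.999 and miR-125a-3p at 0.30; without scaling miR-125a-3p stays above 0 and let-7i-5p, let-7f-5p, let-7b-5p and let-7a-5p turn above 0, and with normexp miR-125a-3p turns below 0.

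A ratio of 2 miRNAs within an array does not depend on the factor by which that array is scaled, so pairs of a locus or family were compared by it. Of 13 pairs listed, 5 had both miRNAs detected on all arrays, and 3 pairs of miR-125a-3p with the members of the other loci were added after seeing which were detected. The differences below are of the mean log2 ratio, UNC1999 minus DMSO, with exact permutation tests, two-sided, adjusted by Benjamini-Hochberg over the 5 planned pairs. The smallest p that this exact permutation test can give is 0.029, reached whenever the groups are fully apart. For a pair at that p, the adjusted p depends on the p of the other pairs and not on the size of its difference. The added pairs set the member called higher against those called lower and are described without a test. Such a ratio shows unequal change and not which partner moved. As miR-125b-5p and let-7a-5p are each encoded at more than a single locus, ratios with them do not compare genes of a locus alone. Of the ratios within a locus, that of miR-99a-5p to let-7c-5p is free of this limit.

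At the chromosome 21 locus the log2 ratio of miR-99a-5p to let-7c-5p was 1.18, 1.18, 1.21 and 1.17 with DMSO and 0.93, 0.94, 1.02 and 0.81 with UNC1999, replicates 1 to 4. The controls were nearly equal although each miRNA alone varied among them, and every treated ratio was lower. The difference was -0.26 (exact permutation p = 0.029, adjusted p = 0.0714), which does not pass 0.05 after adjustment. With normexp it was -0.18 (exact permutation p = 0.0857). The ratio of miR-99a-5p to miR-125b-5p, in contrast, was 0.71 ± 0.08 and 0.62 ± 0.09 (SD, n = 4 each) with overlapping groups, a difference of -0.09 (exact permutation p = 0.2, adjusted p = 0.321). Between single treated and control arrays it differed by -0.29 to 0.11.

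At the chromosome 11 locus the log2 ratio of miR-100-5p to let-7a-5p was -5.29, -5.13, -5.00 and -5.26 in the controls and -5.80, -5.61, -5.83 and -6.09 after UNC1999. The groups did not overlap, and the difference of -0.66 was 1.58-fold (exact permutation p = 0.029, adjusted p = 0.0714), again not past 0.05 after adjustment. With the added pairs among the pairs adjusted for, this p and that of miR-99a-5p to let-7c-5p were 0.0457, so whether they pass depended on pairs chosen after seeing the data. Normexp gave -0.21 and the mean of log2 probe values gave -0.04, in which the dim probe of miR-100-5p counts as much as the bright one, with larger p (exact permutation p = 0.486 and 0.6). In the authors' processed values it was wider, at -1.62. The ratio of miR-100-5p to miR-125b-5p was -2.75 ± 0.13 and -2.88 ± 0.18 (SD, n = 4 each), a difference of -0.14 (exact permutation p = 0.257, adjusted p = 0.321) with overlapping groups.

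Across loci, miR-99a-5p and miR-100-5p had a log2 ratio of 3.46 ± 0.20 in the controls and 3.50 ± 0.13 after UNC1999 (SD, n = 4 each), a difference of 0.05 that was smaller than the spread (exact permutation p = 0.714, adjusted p = 0.714). Single arrays of the groups differed by -0.29 to 0.42. The strands of this pair are nearly identical, and how much of the miR-100-5p signal came from the brighter miR-99a-5p was not tested. This pair and that of miR-100-5p with miR-125b-5p moved between settings, and why was not tested for the authors' values. With the mean of log2 probe values the differences were -0.57 and 0.51, and in the authors' processed values 0.94 and -1.07 (exact permutation p = 0.029 for each).

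Of the 8 pairs the widest differences on the log2 scaled signal were those of miR-125a-3p with the other members. Its log2 ratio to miR-99a-5p was -2.37, -2.09, -1.83 and -2.49 in the controls and -1.14, -0.79, -0.97 and -0.30 after UNC1999. Every treated ratio was higher, by 1.39 in the mean or 2.63-fold. The differences of its ratios to miR-100-5p and miR-125b-5p were 1.44 and 1.30, also with groups apart. With normexp the 3 differences were 0.58, 0.31 and 0.50, and in the authors' processed values 1.49, 2.43 and 1.36. In the authors' values the order changed, as miR-100-5p to let-7a-5p, at -1.62, was wider than the differences of 1.49 and 1.36.

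**Figure D5:**
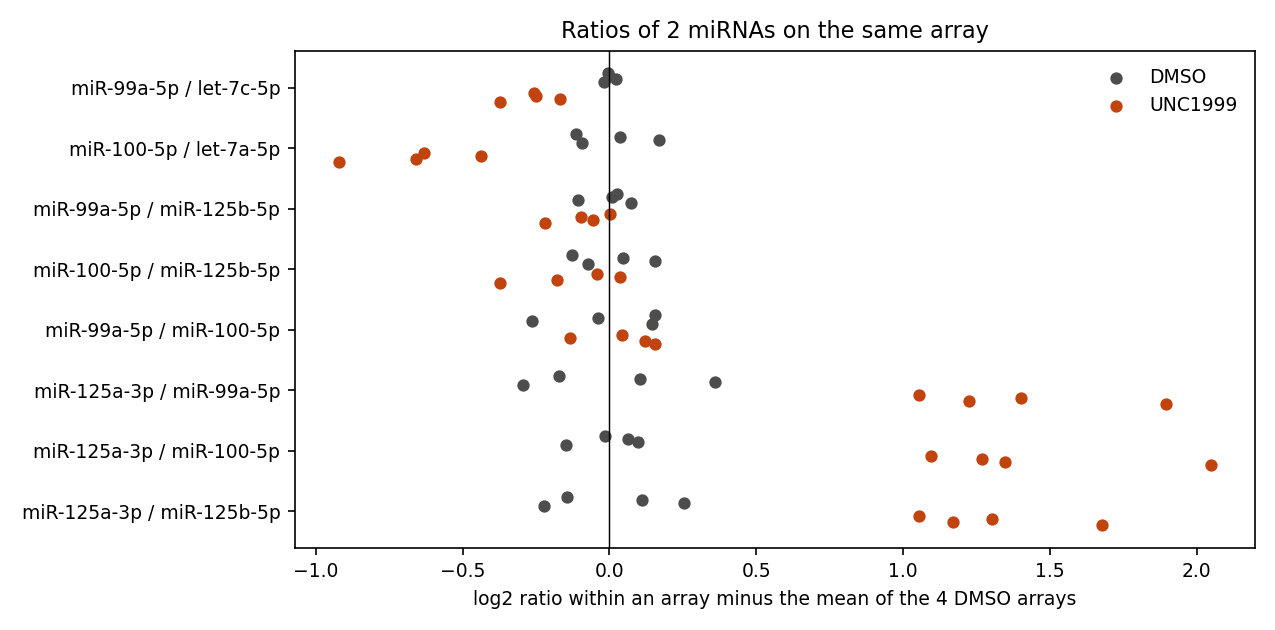
Log2 ratio of 2 miRNAs on the same array for 8 pairs, each shown relative to the mean of the 4 DMSO arrays, with DMSO arrays in grey and UNC1999 arrays in orange. Groups are apart for miR-99a-5p to let-7c-5p, miR-100-5p to let-7a-5p and the 3 pairs with miR-125a-3p, and overlap for the 3 pairs among miR-99a-5p, miR-100-5p and miR-125b-5p.

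Arrays of a group were alike in pairs, DMSO replicates 1 and 4, DMSO replicates 2 and 3, UNC1999 replicates 1 and 3 and UNC1999 replicates 2 and 4. The SD of the log2 differences within these pairs was 0.12, 0.18, 0.14 and 0.17, against 0.30 to 0.36 between other arrays of a group. DMSO replicates 1 and 4 had 482 and 484 detected miRNAs and DMSO replicates 2 and 3 had 369 and 370, while the UNC1999 arrays had 500, 498, 491 and 474. miR-99a-5p, miR-100-5p, miR-125b-5p, let-7a-5p and let-7c-5p were lower on DMSO replicates 2 and 3 than on 1 and 4, and miR-125a-3p was not. On UNC1999 replicates 2 and 4, compared with 1 and 3, miR-125a-3p was higher and miR-99a-5p, miR-125b-5p and let-7a-5p were lower. All 4 detected members were called with a block of 2 levels by the second principal component of these values, which joins DMSO replicates 1 and 4 with UNC1999 replicates 1 and 3. That block was drawn from the same values and takes up spread within the groups by construction. With it the SE of miR-99a-5p was 0.10, against 0.17 without it. Calls kept under it are therefore no further support, and whether alike arrays are independent samples was not tested. With DMSO replicates 2 and 3 left out together, a choice made after seeing the data, the log2 fold changes were -1.33 for miR-99a-5p, -1.23 for miR-100-5p, -1.19 for miR-125b-5p and 0.29 for miR-125a-3p, all called. The arrays lay on 1 slide in 2 rows, with 3 DMSO and 1 UNC1999 array in the first row and 1 and 3 in the second. Within the first row miR-99a-5p, miR-100-5p, miR-125b-5p and miR-125a-3p differed by -1.55, -1.62, -1.30 and 0.46, and within the second by -0.65, -0.92, -0.70 and 0.22. With the row as a block all 4 were called, at -1.10, -1.27, -1.001 and 0.34.

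By a fixed measure of likeness, the root mean squared difference of log2 profiles over the 8 arrays after centring each, the miRNAs outside these lists nearest to miR-99a-5p were miR-29a-3p (0.09) and miR-625-5p (0.11). For miR-125b-5p they were miR-20b-5p (0.081) and miR-20a-5p (0.086), and for miR-100-5p miR-625-5p (0.14) and miR-20b-5p (0.16). All 4 were called lower, miR-29a-3p at -0.99, miR-625-5p at -1.02, miR-20b-5p at -0.94 and miR-20a-5p at -0.88, and none of them was called without scaling. Nearest to miR-125a-3p were miR-3195 (0.034), called higher at 0.34, and miR-1268b (0.070), at 0.23 and not called, but called at 0.93 without scaling. miR-3195 lost its call in 4 of 32 alternatives, among them quantile normalization and normexp, with limma adjusted p of up to 0.0895. All these miRNAs were chosen by likeness over the same 8 arrays, with the difference between the groups included. Their directions and calls therefore follow largely from the choice and are no separate support for the changes of the members.

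The labels call the source mature plasma cells, and miRNAs that mark tissues were read beside the families. Of 4 miRNAs of blood cells, miR-142-3p, miR-142-5p and miR-150-5p were detected on all 8 arrays. miR-155-5p, detected on 0 DMSO and 2 UNC1999 arrays and not tested, had log2 scaled signals of 3.68 ± 0.24 and 4.17 ± 0.19 (SD, n = 4 each), with every treated value above every control. After scaling the other 3 were called lower, miR-142-3p at -0.52, miR-142-5p at -0.36 and miR-150-5p at -0.56. Without scaling they turned to 0.18, 0.33 and 0.13, and with the spike-ins to 0.29, 0.44 and 0.24, none of them called. The summed scaled signal of the 4 was 6126, 5076, 4804 and 5960 with DMSO and 4285, 3391, 3956 and 3723 with UNC1999, replicates 1 to 4. Unscaled the sums overlapped, at 5609, 3419, 2745 and 6430 with DMSO and 5674, 4636, 5571 and 3842 with UNC1999. Of 15 markers of red, epithelial, muscle, nerve, liver, connective and endothelial cells, 14 were detected on 0 arrays, and miR-9-5p, of nervous tissue, was detected on all 8 and changed by -0.88, or by -0.18 without scaling and not called. The nerve list, miR-9-5p and miR-124-3p, summed to 121, 77.9, 77.3 and 122 in the controls and 69.8, 40.9, 62.2 and 44.0 after UNC1999. miR-223-3p, abundant in myeloid cells, was detected on all 8 at 35.7, 40.9, 44.5 and 32.2 in the controls and 77.1, 117, 62.7 and 97.7 after UNC1999. Its log2 fold change was 1.18 and called, 1.88 and called without scaling, and 0.04 and not called with normexp. For the markers that moved, their part in the result was not tested.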

How the data were processed

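The members and the lists of other miRNAs were chosen with earlier results of these data known. The authors deposited, per the file headers, the output of Agilent Feature Extraction 10.7.3.1 for each array, with a background-subtracted intensity per spot not normalized between arrays, a sum per miRNA, and 0 or 1 marks for detection, outliers and saturation. The log2 values that the authors deposited, used as an alternative, were made with GeneSpring 13 per the paper's methods, settings not stated, and are quantile normalized as the values show. Spots of a probe were averaged without outlier spots, and probes were then summed per miRNA. Scaling set equal the arrays' 75th percentiles over the 346 miRNAs that every array detected. Before log2 was taken, values under 8.98, the lowest detected signal of an array in the median, were raised to it. The 456 miRNAs were fitted with limma 3.58.1 in R 4.3.3 (lmFit, eBayes), 4 against 4 arrays without a block, with Benjamini-Hochberg adjustment over all of them. Single values and ratios had exact permutation tests. The steps were tested on simulated data. Normexp, with an offset of 50, was run on the median spot intensity. The miRNAs named are the members, the listed arms, let-7 and miR-10 families, seed sharers, markers and 2 nearest profiles per tested member. Each array counts as a sample, since the labels speak of biological replicates, although arrays of a group were alike in pairs. The number of arrays limits the precision.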

Additional observations from a re-analysis of the deposited data

Results flagged for a closer look

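Among the tested members, let-7 miRNAs and nearest profiles and the ratios, without the cell markers, 50 groups of 4 values were searched for an array standing apart, with Dixon's ratio of gap to range. It found 1 such group, where chance gives 2.5. It was let-7i-5p, a relative of the let-7 miRNAs of the loci, whose log2 scaled signal was 5.97 in UNC1999 replicate 1 and 5.46 to 5.52 in the other UNC1999 replicates.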

How the results depend on the processing

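miR-99a-5p, miR-100-5p and miR-125b-5p were below 0 under all 32 alternatives for single miRNAs, and called under 30 of them each. The exceptions were no scaling and the spike-ins, with 0 members called lower in place of 3. The count of members called higher, 1, was 0 with the software's sum, normexp, a fold threshold of 1.5 or the replicate block, 0 to 1 with an array left out, and 2 with no filter on detection, which adds miR-99b-3p. Among members and let-7 miRNAs the log2 fold changes that turned were -0.17 for miR-125a-3p with normexp; for let-7a-5p 0.22 without scaling and 0.33 with the spike-ins; for let-7f-5p 0.0592 and 0.17; and for let-7i-5p 0.0308 and 0.14. With the spike-ins let-7g-5p was at 0.00858 and let-7b-5p, not called at -0.13 before, was called higher at 0.68. It also turned to 0.57 without scaling and 0.0938 with the 75th percentile over all miRNAs, not called.

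There were 322 calls in all, against 195 with no filter on detection, 175 at a fold of 1.5, 345 with the principal component as a block, 152 by the paired t-test of the paper's statistics section, paired here by replicate number, after Benjamini-Hochberg, and 291 to 326 with an array left out. The higher share of calls was 164 of 322, 54 of 284 with normexp, 192 of 280 with the 75th percentile over all miRNAs, 234 of 238 without scaling and 295 of 302 with the spike-ins. Same-numbered arrays deviated with correlations of 0.18, 0.27, -0.42 and -0.39, so the numbers showed no pairing, and the replicate block gave 308 calls and ended that of miR-125a-3p (0.30, limma adjusted p = 0.0528).

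With normexp the ratio of miR-99a-5p to let-7c-5p differed by -0.18, with an exact p of 0.0857, and that of miR-125a-3p to miR-99a-5p, an added pair without a test, by 0.58. That of miR-100-5p to let-7a-5p differed by -0.21 with normexp and by -0.0447 if log2 probe values were averaged, and by -1.62 in the authors' processed values. With the software's sum miR-99a-5p to miR-125b-5p differed by -0.10, with an exact p of 0.029. miR-100-5p to miR-125b-5p differed by 0.51 with the mean of log2 probe values and -1.07 in the authors' processed values, and miR-99a-5p to miR-100-5p by -0.57 and 0.94, each with an exact p of 0.029. These p are unadjusted. Except for the weight given to the dim probe of miR-100-5p in the mean of log2 probe values, the cause was not tested. Leaving out DMSO replicates 2 and 3 together, scaling 7 arrays anew, the pairs of miR-125a-3p and the scalings of the markers were chosen after seeing the data. Signal over background limits miR-100-5p, whose lowest array was 13.5 beside the floor of 8.98, and the arms that were not detected.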
